A study of Rattus norvegicus with 21 samples.

Results

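The sodium pump and its small FXYD partners were followed through 5 genes, Fxyd2, Fxyd3, Fxyd5, Atp1b1 and Atp1b3, in a rat bladder carcinoma line stimulated with FGF1. Every probe set whose only gene symbol in the array annotation is one of these names was taken, which gave 6 probe sets, 2 of them for Atp1b1, of 15923 on the array and 15866 tested. The 5 genes were picked by name with earlier results of the same 21 arrays known, so each value below describes them and none is an independent test of them.

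The sodium pump (Na,K-ATPase) exports sodium and imports potassium at the cost of ATP, and in epithelial cells it sits in the basolateral membrane, where its ion gradient drives the transport of other solutes. A catalytic alpha subunit does the pumping. A beta subunit, a glycoprotein encoded by genes such as Atp1b1 and Atp1b3, is needed for folding of alpha and its delivery to the surface, and beta subunits of neighbouring epithelial cells also adhere to each other. FXYD proteins cross the membrane once, bind the pump and tune its affinity for ions and its turnover.

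Total RNA was measured on Affymetrix arrays, 1 per sample, and the values are log2 signals normalised by RMA, so that a difference of 1 is a doubling. NBTII-FGFR1 cells, which are NBTII cells transfected with FGF receptor 1, and untransfected NBTII cells were both given FGF1 at 20 ng/ml with heparin for 0.5, 2, 6, 24 or 48 h, or were control cells at 0 h. By its title the series concerns the epithelial to mesenchymal transition (EMT), in which carcinoma cells loosen their contacts and become motile. Of the 12 groups of line and time, 9 had 2 arrays, while NBTII-FGFR1 at 0.5 h and NBTII at 0 h and 0.5 h had 1 each. The labels do not say whether the transfected line was 1 clone or whether replicates came from separate cultures, so errors and p-values here cover only how much these samples vary, and that variation may be technical.

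The arrays had medians of 6.13 to 6.22 and lower quartiles of 4.36 to 4.54. Of 7 epithelial markers, 6 were above the lower quartile in some or all arrays, among them Cdh1 at 7.75 to 10.24 and Epcam at 10.20 to 11.35, while Krt19 was below it in all 21. The leukocyte markers Ptprc and Cd3e and the endothelial markers Pecam1 and Kdr were below it in all 21 arrays. The other 3 measured leukocyte markers, Cd68 (5.19 to 6.68), Itgam (4.58 to 4.94) and Lyz2 (4.79 to 5.57), were above it in all 21, Cd68 also above the array median in 2, and the endothelial Vwf (3.94 to 4.55) was above it in 1. These markers' part in the results was not tested. The uroplakin genes looked up, which mark differentiated urothelium, had no probe set with a single gene symbol in the annotation. Fgfr1, on its probe set that separates the lines, read 3.57 and 5.92 in NBTII-FGFR1 at 0 h and 4.56 to 7.58 from 2 to 48 h, against 3.58 to 4.05 in all 10 NBTII arrays. A second Fgfr1 probe set read 4.48 to 4.88 in all 21. The 3.57 came from replicate 1 of the group labelled NBTII-FGFR1 0 h, a library that thus goes against its label. Among 114 probe sets that separate the lines without overlap from 2 to 48 h, that library lay nearer to NBTII in 104, whereas replicate 2 did so in 32. The 114 leave out the members but hold the Fgfr1 probe set that separates the lines. NBTII-FGFR1 2 h replicate 1 also stood apart from its partner, at 9.84 against 11.11 for Fxyd3 and 6.69 against 8.19 for Fxyd5. Its Fgfr1 value of 7.58 goes with its label, and 2 arrays cannot show which of them is off. Fits without this array drop some extreme member values and are no independent check of the members. This array and replicate 1 of NBTII-FGFR1 0 h are called the doubted arrays below. The 15 spike-in control probe sets (Dap, Lys, Phe, Thr and Trp) averaged 5.88 to 6.35 on the 3 arrays of 0 h. On the 18 later arrays they averaged 5.22 to 5.57, so every comparison with 0 h shares this shift. Its part in those comparisons was not tested.

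The promoters shown are those of Fxyd5 and Atp1b3, the only members for which a promoter window was available. Each window is the 250 bases before the gene's first listed start in RefSeq on GRCr8, read 5′ to 3′ on the minus strand, and windows matched 2 of the 5 genes. Capitals mark an E-box, the motif bound by the Snail, Zeb and basic helix-loop-helix factors (CAGGTG or CACCTG), or a GC box, the motif of Sp factors (GGGCGG or CCGCCC).
Fxyd5, chr1:95404723-95404972: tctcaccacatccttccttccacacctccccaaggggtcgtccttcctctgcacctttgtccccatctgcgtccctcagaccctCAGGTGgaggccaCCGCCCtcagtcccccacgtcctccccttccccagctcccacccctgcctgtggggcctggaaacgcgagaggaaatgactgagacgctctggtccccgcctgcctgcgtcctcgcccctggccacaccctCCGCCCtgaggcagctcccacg
Atp1b3, chr8:105821152-105821401: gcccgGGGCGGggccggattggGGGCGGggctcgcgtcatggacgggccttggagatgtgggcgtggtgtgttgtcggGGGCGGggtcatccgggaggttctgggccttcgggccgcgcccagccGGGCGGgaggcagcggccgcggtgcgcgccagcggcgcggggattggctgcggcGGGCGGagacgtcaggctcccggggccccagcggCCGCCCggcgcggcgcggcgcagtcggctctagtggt
The Fxyd5 window held 1 E-box and 2 GC boxes and was 67.2% G and C. The Atp1b3 window held 6 GC boxes and no E-box, at 79.6% G and C. Over both strands of 33469 rat promoter windows of the same length, an E-box was found in 15.9% and a GC box in 30.5%. The window before a second listed Fxyd5 start, chr1:95404375-95404624, was 60.8% G and C and held none of the 3 motifs searched. An AP-1 motif (TGANTCA), which occurs in 6.3% of windows, was in neither printed window. Such matches describe the letters and do not show that a factor binds there.

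**Figure D1:**
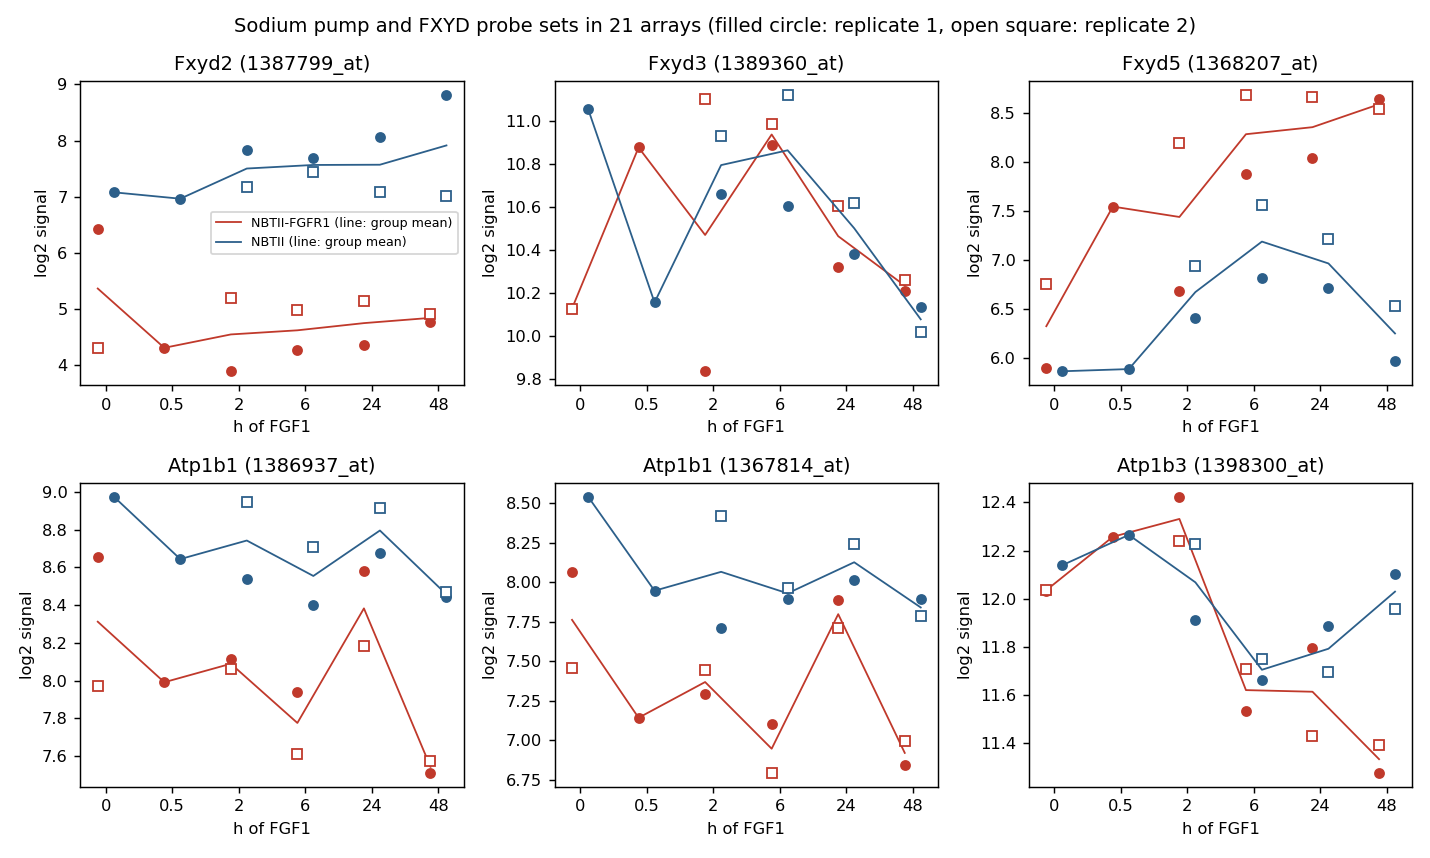
Log2 signal of the 6 probe sets (vertical axes) by hours of FGF1 (horizontal axes, not to scale), with NBTII-FGFR1 in red and NBTII in blue. Points are single arrays and lines join group means; Fxyd2 in NBTII-FGFR1 stayed between 3.89 and 5.20 from 2 to 48 h, below every NBTII array, and Fxyd5 in NBTII-FGFR1 reached 8.65 and 8.54 at 48 h.

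Of the 6 probe sets, 4 differed between the lines over 2 to 48 h: Fxyd2 and both Atp1b1 probe sets were lower in NBTII-FGFR1 and Fxyd5 was higher. In the same comparison of 8 arrays against 8, 16.5% of all probe sets passed the limma fit at an adjusted p of 0.05, and since the members were picked with such results known nothing is read from their count. The median log2 difference was -0.43 over the 6 probe sets and -0.03 over all. Fxyd2 had by far the largest of these differences, while Fxyd3 and Atp1b3 did not pass. In bulk RNA, a smaller share of cells with a transcript and less of it per cell cannot be told apart.

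Fxyd2, the gamma subunit of the renal pump, lowers the pump's affinity for sodium in kidney. Its probe set (1387799_at) read 6.43 and 4.30 in NBTII-FGFR1 at 0 h, 4.31 at 0.5 h, 3.89 and 5.20 at 2 h, 4.26 and 4.97 at 6 h, 4.36 and 5.14 at 24 h, and 4.77 and 4.91 at 48 h. In NBTII it read 7.08 at 0 h, 6.96 at 0.5 h, 7.83 and 7.18 at 2 h, 7.68 and 7.45 at 6 h, 8.06 and 7.08 at 24 h, and 8.81 and 7.01 at 48 h. All 10 NBTII arrays were above every NBTII-FGFR1 array, and the closest NBTII-FGFR1 value, 6.43, came from the library that goes against its label. From 2 to 48 h the level averaged 4.69 ± 0.47 in NBTII-FGFR1 and 7.64 ± 0.60 in NBTII (SD over times and replicates, n = 8 each). The log2 difference was -2.95 ± 0.32 (SE), or 7.72-fold lower in NBTII-FGFR1, and -2.79 ± 0.26 without the doubted arrays. In 5 of the 11 NBTII-FGFR1 arrays Fxyd2 lay below the array's own lower quartile, so the level there is only a bound and the ratio may be understated.

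At 0 h, before FGF1, the fitted Fxyd2 difference was -1.71 ± 0.79 and did not pass, with 1 NBTII array. There NBTII-FGFR1 replicate 2 was -2.78 from the NBTII array on the log2 scale, while the library labelled replicate 1 was -0.65 from it. At 0.5 h the difference was -2.66 ± 0.92, and at 2, 6, 24 and 48 h it lay between -2.82 and -3.07, each with an SE of 0.65. In the order of the 12 group means, all 6 NBTII groups came first, led by 48 h (7.91), and the largest step, 1.60, parted the lowest NBTII group from NBTII-FGFR1 at 0 h. That step was the only one of 11 larger than the within-group SD of 0.82, so the order within each line was not resolved.

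Fxyd5, also called dysadherin, is a FXYD protein with a long glycosylated outer part, known from carcinoma cells for weakening adhesion between cells. Its probe set (1368207_at) read 5.90 and 6.76 in NBTII-FGFR1 at 0 h, 7.55 at 0.5 h, 6.69 and 8.19 at 2 h, 7.89 and 8.69 at 6 h, 8.05 and 8.67 at 24 h, and 8.65 and 8.54 at 48 h. In NBTII it read 5.87 at 0 h, 5.89 at 0.5 h, 6.41 and 6.94 at 2 h, 6.82 and 7.57 at 6 h, 6.71 and 7.22 at 24 h, and 5.98 and 6.53 at 48 h. The lines did not overlap at 6, 24 or 48 h, but at 2 h NBTII-FGFR1 replicate 1 lay between the 2 NBTII arrays. The means over 2 to 48 h were 8.17 ± 0.67 in NBTII-FGFR1 and 6.77 ± 0.49 in NBTII (SD, n = 8 each), a log2 difference of 1.40 ± 0.22 (SE) or 2.64-fold, and 1.59 ± 0.17 without the doubted arrays. By time the difference was 0.46 ± 0.54 at 0 h, 1.66 ± 0.62 at 0.5 h, 0.77 ± 0.44 at 2 h, 1.10 ± 0.44 at 6 h, 1.39 ± 0.44 at 24 h and 2.34 ± 0.44 at 48 h. Replicate 2 read higher than replicate 1 in 8 of the 9 groups with 2 arrays, and with the replicate number as a block the line difference kept its value, with an SE of 0.12, and passed. The 3 highest group means were NBTII-FGFR1 at 48 h (8.59), 24 h (8.36) and 6 h (8.29), which did not differ beyond the within-group SD of 0.55, and the 0.74 step down to NBTII-FGFR1 at 0.5 h was the only one of 11 above it. NBTII at 0 h and 0.5 h closed the order.

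Atp1b1 encodes the beta1 subunit, the common beta of epithelia, and both of its probe sets showed the same picture. On 1386937_at NBTII-FGFR1 read 8.65 and 7.97 at 0 h, 7.99 at 0.5 h, 8.12 and 8.06 at 2 h, 7.94 and 7.61 at 6 h, 8.58 and 8.18 at 24 h, and 7.51 and 7.58 at 48 h. NBTII read 8.98 at 0 h, 8.64 at 0.5 h, 8.54 and 8.94 at 2 h, 8.40 and 8.71 at 6 h, 8.68 and 8.91 at 24 h, and 8.44 and 8.47 at 48 h. NBTII-FGFR1 was below NBTII at every time in both arrays, with the nearest arrays at 24 h (8.58 against 8.68) and a wide gap at 48 h. The log2 difference over 2 to 48 h was -0.69 ± 0.10 (SE) on this probe set, 1.61-fold lower in NBTII-FGFR1, and -0.73 ± 0.11 on 1367814_at. The 24 h difference was the smallest of the 6 times on both, at -0.41 ± 0.21 and -0.33 ± 0.21, and both NBTII-FGFR1 arrays of 24 h lay above those of 6 h and 48 h. On 1367814_at, NBTII-FGFR1 ranged from 6.79 to 7.89 over 2 to 48 h, against 7.71 to 8.42 in NBTII. The probe sets followed each other with a Pearson r of 0.95 over the 11 NBTII-FGFR1 arrays and 0.90 over the 10 NBTII arrays. In both orders the 6 NBTII groups stood above the 6 NBTII-FGFR1 groups, although the step where the lines meet, between NBTII at 48 h and NBTII-FGFR1 at 24 h, was within the replicate SD of 0.24 on 1386937_at and 0.25 on 1367814_at.

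Atp1b3 encodes the beta3 subunit, which is found in many tissues. Its probe set (1398300_at) was in the top of the level range in every array. NBTII-FGFR1 read 12.03 and 12.04 at 0 h, 12.26 at 0.5 h, 12.42 and 12.24 at 2 h, 11.53 and 11.71 at 6 h, 11.80 and 11.43 at 24 h, and 11.28 and 11.39 at 48 h. NBTII read 12.14 at 0 h, 12.26 at 0.5 h, 11.91 and 12.23 at 2 h, 11.66 and 11.75 at 6 h, 11.89 and 11.70 at 24 h, and 12.10 and 11.96 at 48 h. Both lines were low at 6 h, and at 48 h both NBTII arrays were above both NBTII-FGFR1 arrays. The log2 difference between lines averaged -0.17 ± 0.07 over 2 to 48 h, which did not pass, but by time it was 0.26 ± 0.14 at 2 h, -0.08 ± 0.14 at 6 h, -0.18 ± 0.14 at 24 h and -0.69 ± 0.14 at 48 h. NBTII-FGFR1 had both the highest group mean, 12.33 at 2 h, and the lowest, 11.33 at 48 h. The lowest mean was separated from its neighbour by 0.28, more than the within-group SD of 0.14, while the 7 highest means formed a run without such a step.

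Fxyd3, or Mat-8, a FXYD protein of epithelia and of several carcinomas, did not separate the lines. Its probe set (1389360_at) ranged from 9.84 to 11.11 in NBTII-FGFR1 over 2 to 48 h, with a median of 10.47, and from 10.02 to 11.12 in NBTII, with a median of 10.61. The extremes of NBTII-FGFR1 were the 2 arrays of 2 h, 9.84 and 11.11, the widest gap between partners (1.27) for this gene. At 48 h all 4 arrays were low, with 10.21 and 10.26 in NBTII-FGFR1 and 10.14 and 10.02 in NBTII. The line difference was -0.03 ± 0.14, and 0.13 ± 0.09 without the doubted arrays. None of the 11 steps between neighbouring group means exceeded the within-group SD of 0.34.

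**Figure D2:**
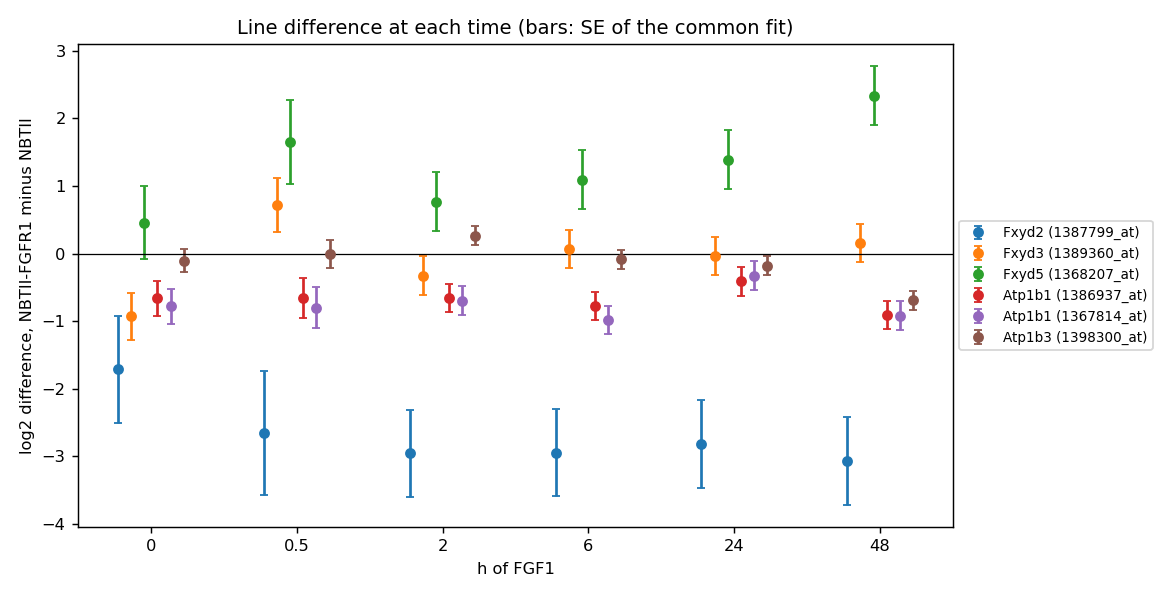
Log2 difference NBTII-FGFR1 minus NBTII (vertical axis) for each probe set at each time of FGF1 (horizontal axis, not to scale), with bars for the SE of the common fit. Fxyd2 lay between -1.71 and -3.07 at all 6 times, both Atp1b1 probe sets were below 0 at all 6, and Fxyd5 was at 2.34 and Atp1b3 at -0.69 at 48 h.

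The other FXYD and beta genes with a probe set showed no difference that passed. Fxyd1, Fxyd4, Fxyd6, Fxyd7, Atp1b2 and Atp1b4, and the alpha gene Atp1a4, were called in none of the 8 comparisons by limma. Fxyd1 (phospholemman) read 5.22 to 5.94, Fxyd4 4.37 to 4.99, Fxyd6 4.39 to 5.14 and Fxyd7 4.35 to 4.96 over the 21 arrays, below the array medians. Atp1b2 (3.87 to 4.41), Atp1b4 (3.06 to 3.48) and Atp1a4 (2.99 to 3.41), a gene of sperm, read lower still. These last values lie near or below the array lower quartiles (4.36 to 4.54). There, a lack of change cannot be told from a signal too low to follow. The largest of their line differences over 2 to 48 h was that of Fxyd6, -0.22 ± 0.07. Fxyd6 is the next protein-coding gene to Fxyd2 in the RefSeq order on GRCr8, with 0 between them. Fxyd5 and Fxyd3 lie on 1 chromosome with 3 protein-coding genes between them, Fxyd7, Fxyd1 and Lgi4.

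At 24 and 48 h of FGF1, Fxyd5 was higher and Atp1b3 lower than at 0 h in NBTII-FGFR1. No later array was of cells without FGF1, so time of FGF1 cannot be told apart from time in culture. Whether a change from 0 h differed between the lines was not tested. Against 0 h, Fxyd5 was higher by 1.54 ± 0.38 at 2 and 6 h and by 2.15 ± 0.38 at 24 and 48 h in NBTII-FGFR1, the later difference being 4.43-fold. Atp1b3 differed by -0.06 ± 0.12 at 2 and 6 h and by -0.56 ± 0.12 at 24 and 48 h, and only the later one passed. Its early mean joins a higher and a lower value, 0.30 ± 0.14 at 2 h and -0.41 ± 0.14 at 6 h. The single later times were -0.42 ± 0.14 at 24 h and -0.70 ± 0.14 at 48 h, so 24 h was near 6 h. In NBTII, Atp1b3 at 6 h was -0.43 ± 0.18 from the 1 array of 0 h. Between 24 and 48 h on one side and 2 and 6 h on the other, which share no 0 h array, Atp1b3 changed by -0.50 ± 0.10 in NBTII-FGFR1, with all 4 later arrays below both 2 h arrays but not below all of 6 h. This was the only one of the 6 probe sets that passed there, where 17.2% of all did. The Fxyd5 difference in that comparison, 0.61 ± 0.31, did not pass, but with the replicate block it was 0.61 ± 0.17 and passed (limma, adjusted p = 0.023). It was 0.24 ± 0.25 without the doubted arrays and 0.99 without NBTII-FGFR1 2 h replicate 2, which passed.

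In the comparisons with 0 h, 2 of 6 probe sets passed at 2 and 6 h in NBTII-FGFR1, against 16.4% of all, and 2 of 6 at 24 and 48 h, against 16.9%. The second at 2 and 6 h was Atp1b1 on 1367814_at, at -0.60 ± 0.19, while 1386937_at was at -0.38 ± 0.18. These rest on the 0 h arrays: without replicate 1 of 0 h, the library that goes against its label, the 2 and 6 h differences were 1.11 ± 0.48 for Fxyd5 and -0.30 ± 0.21 for Atp1b1, and neither passed. Nor did either pass with only the arrays compared, and the Atp1b1 difference also missed without NBTII-FGFR1 2 h replicate 1 (-0.57) or 6 h replicate 2 (-0.53). On 1386937_at it passed only when 0 h replicate 2 was left out, at -0.72 at 2 and 6 h and -0.69 at 24 and 48 h. Fxyd3 was 0.58 ± 0.24 at 2 and 6 h, and 0.90 without both doubted arrays, a fit that drops the 2 h array doubted for its own Fxyd3 value. At 24 and 48 h without replicate 1 of 0 h alone, Fxyd5 was 1.72 ± 0.48 and passed, and Atp1b3 was -0.56 ± 0.17 and did not. Without both doubted arrays Atp1b3 passed at -0.56 ± 0.16, and Fxyd5 passed at 1.72 ± 0.36 there and at 1.48 ± 0.38 at 2 and 6 h. Fxyd2, which replicate 1 of 0 h read at 6.43, was -0.57 ± 0.56 at 24 and 48 h with it and 0.50 ± 0.60 without it.

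In NBTII, 0 of 6 probe sets passed in any time comparison with limma. At 2 and 6 h against 0 h, where 4.72% of all probe sets passed, 2 of the 6 had an unadjusted p under 0.05, as did 17.4% of all. At 24 and 48 h, where 1.14% passed, the number was also 2, against 11.5% of all. The 2 at 2 and 6 h were of Fxyd5 and Atp1b1, and the 2 at 24 and 48 h of Atp1b1 and Fxyd3. Fxyd5 was 1.07 ± 0.49 at 2 and 6 h and 0.74 ± 0.49 at 24 and 48 h, with 1 array at 0 h as the base. At the same times Atp1b1 was -0.54 ± 0.24 and -0.56 ± 0.24 on 1367814_at, and -0.33 ± 0.23 and -0.35 ± 0.23 on 1386937_at. Fxyd3 was -0.23 ± 0.32 and -0.77 ± 0.32. Between 24 and 48 h and 2 and 6 h, 11.9% of all probe sets passed and 1 of the 6 had an unadjusted p under 0.05, as did 23.6% of all: Fxyd3, at -0.54 ± 0.20. With the replicate block Fxyd3 passed there by limma, at -0.54 ± 0.17 and an adjusted p of 0.049. Neither doubted array is of NBTII, so without both of them the Fxyd3 difference in NBTII stayed at -0.54. In NBTII-FGFR1 the same difference was -0.35 ± 0.20, and -0.67 without both doubted arrays. That fit drops the 2 h array that was doubted for its own Fxyd3 and Fxyd5 values, so it is no check of Fxyd3. Fxyd5 was -0.32 ± 0.31 and Atp1b3 0.02 ± 0.10 in NBTII in the same comparison.

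Whether the late change differed between the lines was tested by the difference of the 2 changes. With limma, 0 of the 6 passed, as did 0.164% of all probe sets, and 1 of the 6 had an unadjusted p under 0.05, against 10.2% of all. That one was Atp1b3, at -0.53 ± 0.14. Fxyd5 stood at 0.93 ± 0.44, Fxyd3 at 0.19 ± 0.28 and Fxyd2 at 0.00 ± 0.65. The change of Atp1b3 between the early and late times in NBTII-FGFR1 is therefore not shown to differ from that in NBTII.

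**Figure D3:**
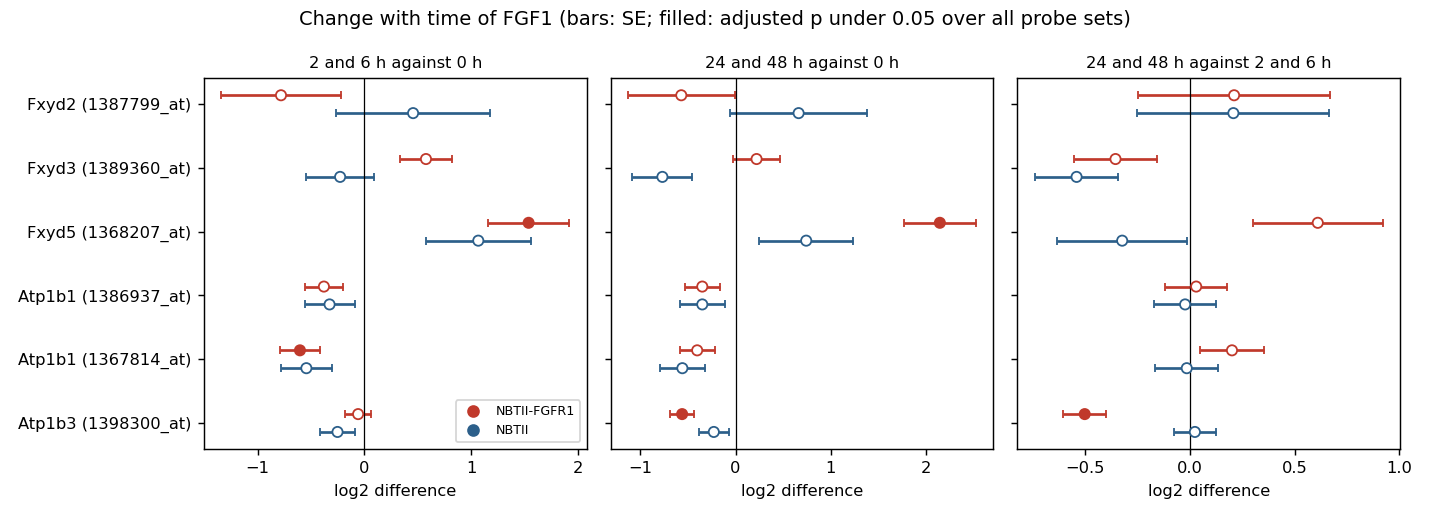
Log2 differences (horizontal axes) of 2 and 6 h and of 24 and 48 h against 0 h, and of 24 and 48 h against 2 and 6 h, for the 6 probe sets, NBTII-FGFR1 in red above NBTII in blue. Bars are SE and filled points passed the limma fit; Fxyd5 was highest in NBTII-FGFR1 at 24 and 48 h (2.15), and Atp1b3 in the right panel was -0.50 in NBTII-FGFR1 and 0.02 in NBTII.

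The members did not move as 1 group within a line. Fxyd5 and Atp1b3 had a Pearson r of -0.67 over the 11 NBTII-FGFR1 arrays and -0.69 over the 10 NBTII arrays. Fxyd5 and Atp1b1 (1386937_at) had -0.59 in NBTII-FGFR1 and 0.18 in NBTII. Fxyd2 and Atp1b1, both low in NBTII-FGFR1, had 0.29 in NBTII-FGFR1 and -0.53 in NBTII. These points share the time course, the 0 h shift and the replicate offsets, so the values are descriptions.

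Genes with a profile like each member were ranked by Pearson r over all 21 arrays, among 516 or 517 genes that vary and are read above the median level. These r values hold the line difference and the shared normalisation. Nearest to Fxyd5 were Ppp1r18, a phosphatase 1 subunit that binds actin (0.95), the kinase gene Src (0.91) and Selenom (0.91), and the Ppp1r18 value was 0.93 within NBTII-FGFR1 and 0.92 within NBTII. Mpzl2, an adhesion protein of epithelia (-0.91), and Serpinb7 (-0.84) were farthest from it. Nearest to Atp1b3 were Afap1l2, an adaptor of Src (0.93), the glutamate transporter gene Slc1a3 (0.91) and Slc44a2 (0.87), and farthest were Bcar3 (-0.92) and Cda (-0.90). For Fxyd2, Igfbp5 (0.91), Plaat3 (0.84) and Slco4a1 (0.84) were nearest, yet within lines the r of Igfbp5 was 0.78 in NBTII-FGFR1 and 0.46 in NBTII. Padi3 and Pfn2 (both -0.79) were farthest from Fxyd2. The matrix genes Col5a2 and Sparc (both 0.84) and the histone gene H3c1 (0.83) were nearest to Atp1b1, and the protease gene Ctsl (-0.86) and Ampd3 (-0.85) farthest. For Fxyd3 the highest values were lower, at 0.74 for Gip, 0.73 for Glipr1 and 0.72 for Pdlim7, with -0.77 for the lactate transporter gene Slc16a1 and -0.69 for Synm.

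The surroundings of the pump were described by 68 listed genes, of which 61 had a probe set. They were the other pump genes above, related P-type pumps, sodium entry, potassium exit, regulators and adhesion partners. Not all of them carry sodium or potassium, as the lists hold calcium pumps, kinases, receptors and adhesion genes. Between the lines over 2 to 48 h, 8 were higher and 2 lower in NBTII-FGFR1, 16.4% of the 61 against 18.1% of all 10411 genes, and their median was -0.05 against -0.03. The corticosteroid receptor genes Nr3c2 (0.65 ± 0.10) and Nr3c1 (0.56 ± 0.12) were the largest of the higher ones. The cotransporter gene Slc12a2 (-0.40 ± 0.08) and St14, a protease that activates the epithelial sodium channel (-0.31 ± 0.08), were the lower ones. The count fell to 6 without NBTII-FGFR1 48 h replicate 1, and likewise without NBTII 48 h replicate 1.

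**Figure D4:**
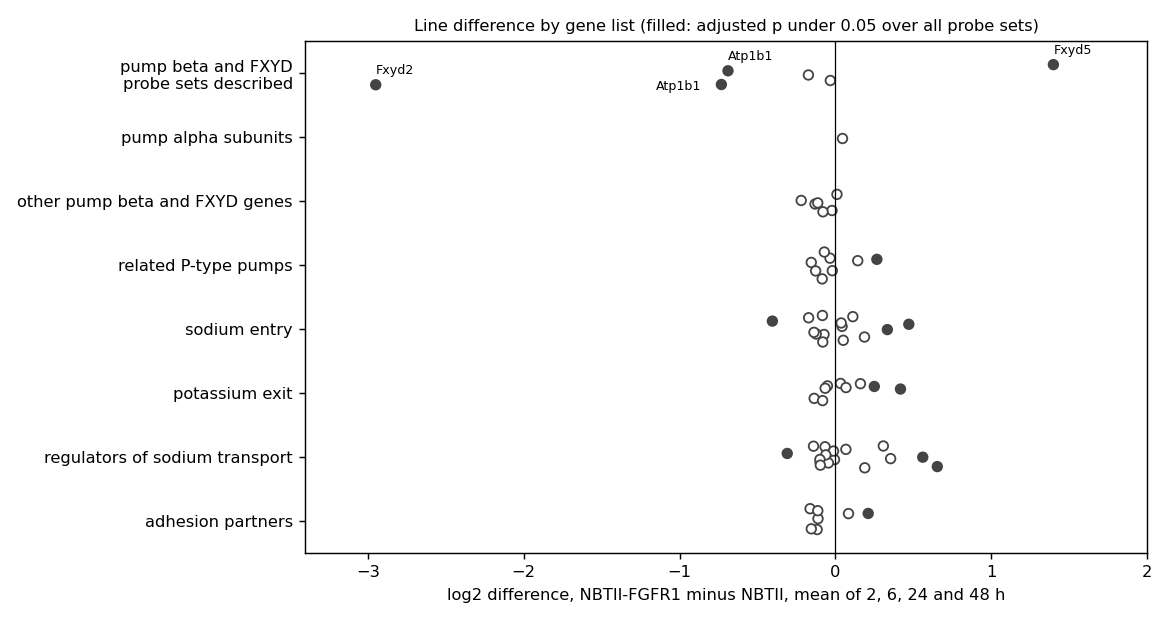
Log2 difference NBTII-FGFR1 minus NBTII over 2 to 48 h (horizontal axis) for the 6 probe sets described and, below, the 61 listed genes by list; vertical scatter within a row has no meaning. Filled points passed the limma fit; Fxyd2 (-2.95) and Fxyd5 (1.40) lie outside the span of the listed genes, which reach 0.65 for Nr3c2 and -0.40 for Slc12a2.

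At 24 and 48 h against 2 and 6 h, E-cadherin (Cdh1), an adhesion partner, and plakoglobin (Jup) fell most in both lines. Cdh1 changed by -1.84 ± 0.18 in NBTII-FGFR1 and -1.73 ± 0.18 in NBTII, and Jup by -1.08 ± 0.09 in NBTII-FGFR1 and -0.94 ± 0.09 in NBTII. These are falls from the early level and not from 0 h. As given below, Cdh1 in NBTII was higher at 2 and 6 h than at 0 h. At 24 and 48 h it was below 0 h in NBTII-FGFR1, but was not among the genes called lower than 0 h in NBTII. Tsc22d3, a corticosteroid-induced gene, rose in NBTII-FGFR1 (0.95 ± 0.15) and in NBTII (0.53 ± 0.15). The other largest rises were Slc4a7 in NBTII-FGFR1 (0.46 ± 0.12) and Slc12a2 in NBTII (0.52 ± 0.12). In all, 4 listed genes were higher and 9 lower in NBTII-FGFR1, 21.3% against 19.2% of all genes, and 3 were higher and 9 lower in NBTII, 19.7% against 13.4%. The NBTII count was 7 without NBTII 48 h replicate 2. No listed gene passed the test of the difference between lines (0.192% of all genes did), and 9 of the 61 had an unadjusted p under 0.05, against 10.9% of all genes.

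Against 0 h, some of the 61 listed genes passed in each line. Those in NBTII rest on its 1 array of 0 h, which no fit could leave out. At 2 and 6 h, 9 rose and 5 fell in NBTII-FGFR1 (23.0%, against 17.8% of all genes), led by the phosphate cotransporter gene Slc20a1 (1.59 ± 0.19) and the potassium channel gene Kcnn4 (1.14 ± 0.19), with Tsc22d3 (-1.10 ± 0.19) and Slc5a6 (-0.61 ± 0.12) at the other end. In NBTII at 2 and 6 h, 9 rose and 0 fell (14.8%, against 5.21%), led by Cdh1 (1.98 ± 0.28) and Kcnn4 (1.75 ± 0.24). At 24 and 48 h, 10 rose and 7 fell in NBTII-FGFR1 (27.9%, against 18.2%), with Nedd4l (0.93 ± 0.21), a ubiquitin ligase that removes the epithelial sodium channel, and Slc4a7 (0.89 ± 0.15) highest and Slc8a1 (-0.93 ± 0.17) and Cdh1 (-0.83 ± 0.21) lowest. In NBTII at 24 and 48 h, 3 rose and 1 fell (6.6%, against 1.27%): Sgk1 (1.24 ± 0.28) and Kcnn4 (1.22 ± 0.24) were the largest rises and Slc8a1 (-1.04 ± 0.22) the fall. When replicate 1 of NBTII-FGFR1 at 0 h was left out, the counts in NBTII-FGFR1 were 7 at 2 and 6 h, against 14 with it, and 8 at 24 and 48 h, against 17 with it.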

How the data were processed

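Total RNA of rat NBTII-FGFR1 and NBTII cells was measured on 21 one-colour Affymetrix arrays. The deposited table holds log2 signals per probe set, for which the submitters' processing notes name RMA without a version. They were used as deposited, without further normalisation, and the number of arrays limits the precision. Groups came from the sample titles. Of 15923 probe sets, 57 controls were left out. Of the other 15866, 12783 had 1 gene symbol, 312 several and 2771 none in the platform annotation, and the 12783 named 10411 genes, each represented by its probe set of highest mean.

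Limma 3.58.1 in R 4.3.3 was fitted to the 12 group means of all 21 arrays (9 residual degrees of freedom), with eBayes and Benjamini-Hochberg adjustment over all 15866 probe sets and a threshold of 0.05. Single arrays take their spread from the other groups. The same script was tested on simulated data. The members and lists were chosen with earlier results of these data known. All member probe sets, all other pump and FXYD genes, and per comparison the 2 rising and 2 falling listed genes with the largest called difference are named, as are the 3 genes of highest and 2 of lowest correlation with each member. Replicate numbers did not pair the arrays as a whole: deviations of same-numbered arrays correlated at -0.13 to 0.35 (median 0.02) over 36 pairs of groups, of which 15 were over 0.1. Within NBTII all 6 pairs were, at 0.11 to 0.23. Within NBTII-FGFR1, 2 h with 6 h had 0.33, 6 h with 24 h 0.35 and 2 h with 24 h 0.17. Pairs with its 0 h or 48 h group lay from -0.11 to -0.0013. The blocked value therefore stands beside the results that it changes. Alternatives were a level filter, a replicate block, only the arrays compared, quantile normalisation, eBayes with trend and robust settings, array weights, the mean of a gene's probe sets, Spearman ranks, and fits without 1 array or without both doubted arrays. Coordinates are those of RefSeq windows on GRCr8. The strand of 1437 overlapping windows on opposite strands was checked.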

Additional observations from a re-analysis of the deposited data

How the results depend on the processing

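Of 1240 alternative values of the members, 1173 kept direction and side of the threshold. Of the 1173, 949 were of differences that did not pass in the main fit. Leaving out an array outside a comparison cannot change its log2 difference, so the share kept is no measure of stability. Over the 18 fits without 1 array, the line difference ran from -3.175 to -2.724 for Fxyd2 and from 1.21 to 1.59 for Fxyd5. For Atp1b1 it ran from -0.74 to -0.64 on 1386937_at and from -0.82 to -0.64 on 1367814_at. The filter on low levels left Fxyd2 out. Counts of member probe sets over the 18 fits ran from 1 to 2 at 24 and 48 h against 2 and 6 h in NBTII-FGFR1 and from 0 to 1 in NBTII, from 0 to 3 at 2 and 6 h and from 1 to 3 at 24 and 48 h against 0 h in NBTII-FGFR1, and from 0 to 1 at 24 and 48 h against 0 h in NBTII. The replicate block, whose numbers did not pair all groups, gave 2 in NBTII-FGFR1 (Fxyd5 added, adjusted p = 0.023) and 1 in NBTII (Fxyd3) at 24 and 48 h against 2 and 6 h; leaving out both doubted arrays gave 2 and 1, and array weights 1 in NBTII. With only the arrays compared, the counts were 1 in NBTII there, 0 at 2 and 6 h against 0 h in NBTII-FGFR1 and 1 at 24 and 48 h against 0 h in NBTII. Counts of listed genes ran from 6 to 12 between the lines, from 7 to 13 late against early in NBTII, from 0 to 2 for the difference of the late changes, from 7 to 15 and from 8 to 17 at the earlier and later times against 0 h in NBTII-FGFR1, and from 1 to 5 at the later times in NBTII. That last count was 1 or 2 when any 1 of the NBTII arrays of 24 and 48 h or the NBTII-FGFR1 arrays of 48 h was left out. The difference of late changes called 2 without NBTII-FGFR1 2 h replicate 2, and 1 without replicate 1 of 6 h or of 24 h. At the earlier times in NBTII-FGFR1 the count was 9 with only the arrays compared, 9 without 0 h replicate 2 and 9 without both doubted arrays, which gave 9 at the later times too.

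All 41 reversals concern differences that did not pass in either fit, and the cause was not tested. Without both doubted arrays, Fxyd2 was -0.12 for 24 and 48 h against 2 and 6 h in NBTII-FGFR1, -0.32 for the difference of the lines' late changes, 0.61 at 2 and 6 h and 0.50 at 24 and 48 h against 0 h, and Fxyd3 was 0.13 between the lines and -0.13 for the difference of late changes. Over the 18 fits, late against early ran from -0.12 to 0.54 in NBTII-FGFR1 and from -0.24 to 0.66 in NBTII for Fxyd2. It ran from -0.070 to 0.13 in NBTII-FGFR1 and from -0.12 to 0.079 in NBTII for Atp1b1 on 1386937_at, from -0.19 to 0.16 in NBTII for 1367814_at and from -0.054 to 0.10 in NBTII for Atp1b3. The difference of the late changes ran from -0.45 to 0.45 for Fxyd2, from -0.13 to 0.50 for Fxyd3 and from -0.048 to 0.15 for Atp1b1 on 1386937_at. Against 0 h in NBTII-FGFR1, Fxyd2 ran from -1.85 to 0.28 at 2 and 6 h and from -1.64 to 0.50 at 24 and 48 h, and the line difference of Fxyd3 from -0.19 to 0.13. By Spearman ranks, 10 of the 15 genes named as nearest to a member were again among its 3 nearest. With 1 or 2 arrays a group, changes of the size of the replicate gaps were not detectable, and differences from signals near the lower quartile may be understated.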
